A study of Mus musculus with 182 samples.

Results

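The genes described here encode the machinery of oxidative phosphorylation in mouse oocytes and cleavage embryos. They are the autosomal genes of the count table whose symbol starts with Nduf, Uqcr, Atp5, Sdh followed by a to d, or Cox4 to Cox8. The rule found 93 of the 24499 genes in the table. By symbol, 36 were subunits of complex I, 4 of complex II, 8 of complex III, 17 of complex IV and 15 of complex V. Those 80 subunit genes came with 11 assembly factors and with Atp5s and Atp5sl, which share the letters but are counted here as non-subunits. A further 3 genes with the same letters, Ndufa1, Ndufb11 and Cox7b, are X-linked and were not members.

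In the inner mitochondrial membrane, complex I takes electrons from NADH and complex II takes them from succinate. Complex III passes them to cytochrome c, complex IV passes them on to oxygen, and complex V, the ATP synthase, makes ATP with the proton gradient that complexes I, III and IV build. Most subunits are encoded in the nucleus and the rest in mitochondrial DNA. Cleavage embryos inherit their mitochondria from the egg, and pyruvate is their main fuel before compaction, with glucose used more towards the blastocyst. Mitochondrially encoded transcripts were not analysed here.

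The study sequenced 182 single cells after polyA-primed amplification: 7 oocytes and the blastomeres of 2-cell to 64-cell embryos, written 2C to 64C. Oocytes came from C57BL/6J (B6, 4 cells) and from Cast/EiJ (Cast, 3 cells). Embryos came from natural matings without culture, either of a B6 mother with a Cast father (BC) or of a Cast mother with a B6 father (CB), and were female or male by label. Wild-type embryos (Xist wt/wt) gave 106 cells in both crosses, with no male CB group of 4C. The 69 cells labelled Xist wt/ko (a deletion of the paternal Xist allele) were all CB: females at 8C, 16C, 32C and 64C, called mutant here, and males at 32C and 64C. Males inherit no paternal X chromosome, so a deletion on it is not expected in these males whatever their label, and they are called the males labelled wt/ko. Xist was at 0 to 2.16 CPM in 5 of the 7 mutant 8C cells but at 21.2 and 80.6 CPM in the other two, against their label, and at most 8.51 CPM in the later mutant females. Wild-type CB females of 8C to 64C had 4.5 to 532.7 CPM per cell. Cells with the same stage, cross, sex and genotype labels were summed into 31 groups, which were the samples of each comparison. The labels name no embryo, so cells of 1 group can share an embryo and p-values measure the spread between groups.

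Depth was 2538818 to 40049961 counted reads per cell, and groups held 1 to 25 cells, with 4 groups of a single cell. The 8 oocyte markers summed to 26333 to 41772 CPM (counts scaled to a library total of 1e+06) in the oocyte groups and to 9.38 to 21.7 CPM in the wild-type 64C groups. Of 7 cumulus and granulosa markers, 4 had no reads in either oocyte group. The rest of that list did have reads there, with a median sum of 28.57 CPM over the oocyte groups and a highest sum of 45.94 CPM. Among embryo stages the highest sum of the list was 10.83 CPM, in a wild-type 8C group. Whether RNA of cumulus or granulosa cells was part of the oocyte libraries was not tested. In the 64C wild-type groups the trophectoderm markers summed to 273 to 9176 CPM and the inner cell mass or epiblast markers to 485 to 1842 CPM, so the mix of cells differed between groups; its part in the results was not tested. In summed cells, fewer cells of a type and less RNA per cell cannot be told apart.

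Reads of the 93 genes took up a small share of the oocyte libraries and a larger one of every embryonic stage. They made up 0.2998 ± 0.0581% of counted reads in oocytes (SD, n = 2 groups), 0.818 ± 0.122% in 2C groups (n = 4) and 0.526 ± 0.035% in 4C groups (n = 3). From 8C on, the means were 0.822 ± 0.187%, 1.22 ± 0.43%, 1.45 ± 0.28% and 2.26 ± 0.083% in 8C groups, 16C, 32C and 64C (n = 4 each). The 4 groups at 64C (2.25%, 2.22%, 2.19% and 2.38%) lay above every earlier wild-type group, the highest of which was 1.75%. The 3 groups at 4C (0.489%, 0.532% and 0.558%) lay below all 4 groups at 2C (0.682% to 0.961%). The 16C groups fell apart by sex, with 0.813% and 0.915% in females and 1.47% and 1.70% in males. The male groups held 3 cells and 1 cell.

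**Figure D1:**
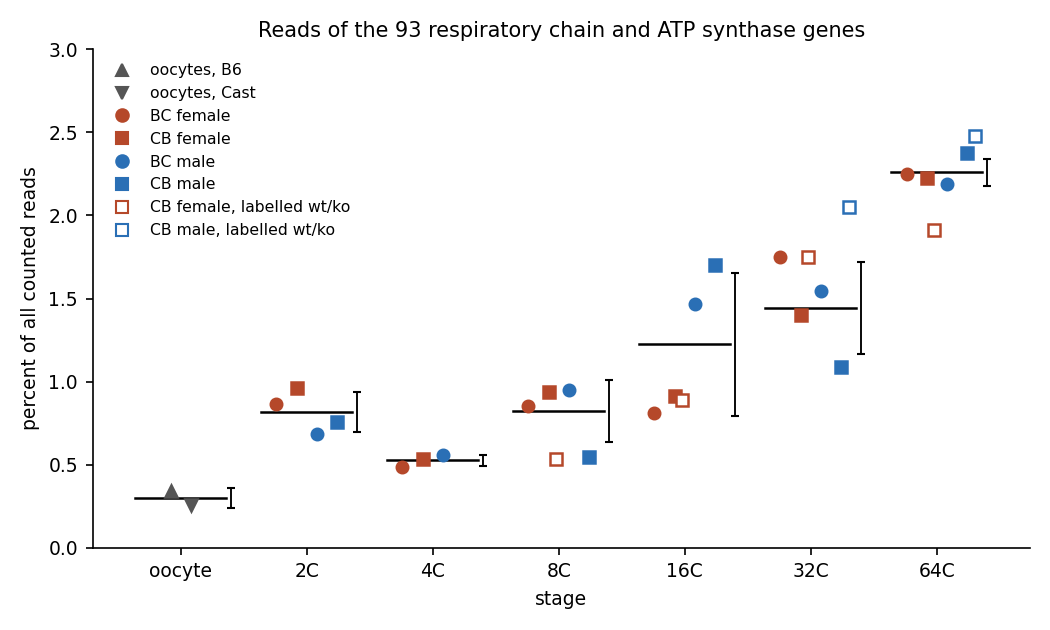
Percent of counted reads in the 93 genes (y axis) by stage (x axis), 1 point per group of summed cells. Lines across a stage are the mean of the wild-type groups and the error bars 1 SD; the 4 wild-type 64C groups, at 2.19% to 2.38%, stand above all earlier wild-type groups.

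The complexes did not share 1 time course. Their shares of reads are not corrected for transcript length or for the number of genes in a complex. Complex V took the largest mean share at all stages, and the largest in each group except the B6 oocytes, where complex IV was above it (0.115% against 0.0884%). The means of complex V were 0.107% of reads in oocytes, 0.339% in 2C groups, 0.292% in 4C groups and 1.12% in 64C groups. Complex I went from 0.0499% in oocytes through 0.154% in 2C groups and 0.0742% in 4C groups to 0.521% in 64C groups. Complex IV was the only one whose mean at 64C (0.294%) was less than 1.5 times that at 2C (0.235%), after a low of 0.0537% in 4C groups. Complex II was lowest at 2C (0.0079%), below its oocyte share of 0.0303%, and reached 0.0814% in 64C groups. The 11 assembly factors stayed between 0.0259% and 0.0409% at every stage.

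Of the 93 genes, 75 had reads in all 23 wild-type embryo groups and 87 averaged at least 1 CPM over them. The mean CPM was highest at 64C for 54 genes and at 2C for 16, and lowest in oocytes for 61. The same counts were not made over all genes. CPM rest on library totals, under which the median log2 change of all genes from oocytes to 2C was 1.45. In the main fit that median was 0.04, so a lowest CPM in oocytes is not particular to these genes. Between 2C and 64C, 54 of the 90 members tested rose and 4 fell by edgeR's quasi-likelihood test at a Benjamini-Hochberg adjusted p under 0.05, against 18.3% higher and 20.6% lower among all genes tested. Their median log2 change was 2.26, and that of all genes tested was 0.0. As a slope per doubling of cell number over the 23 embryo groups, 53 of 87 members rose and 2 fell, against 20.2% and 19.8% of all genes, with a median slope of 0.43 beside -0.003 for all genes. With library totals alone, 44 members still rose from 2C to 64C, while the median of all genes moved to -0.58. Ndufs5, Ndufa4l2 and Cox8b did not pass the filter on low counts, and Cox6a2, Cox7b2 and Cox8c passed it for the stage contrasts but not for the slope. The genes that passed include some that did so through the stage at which they were high.

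**Figure D2:**
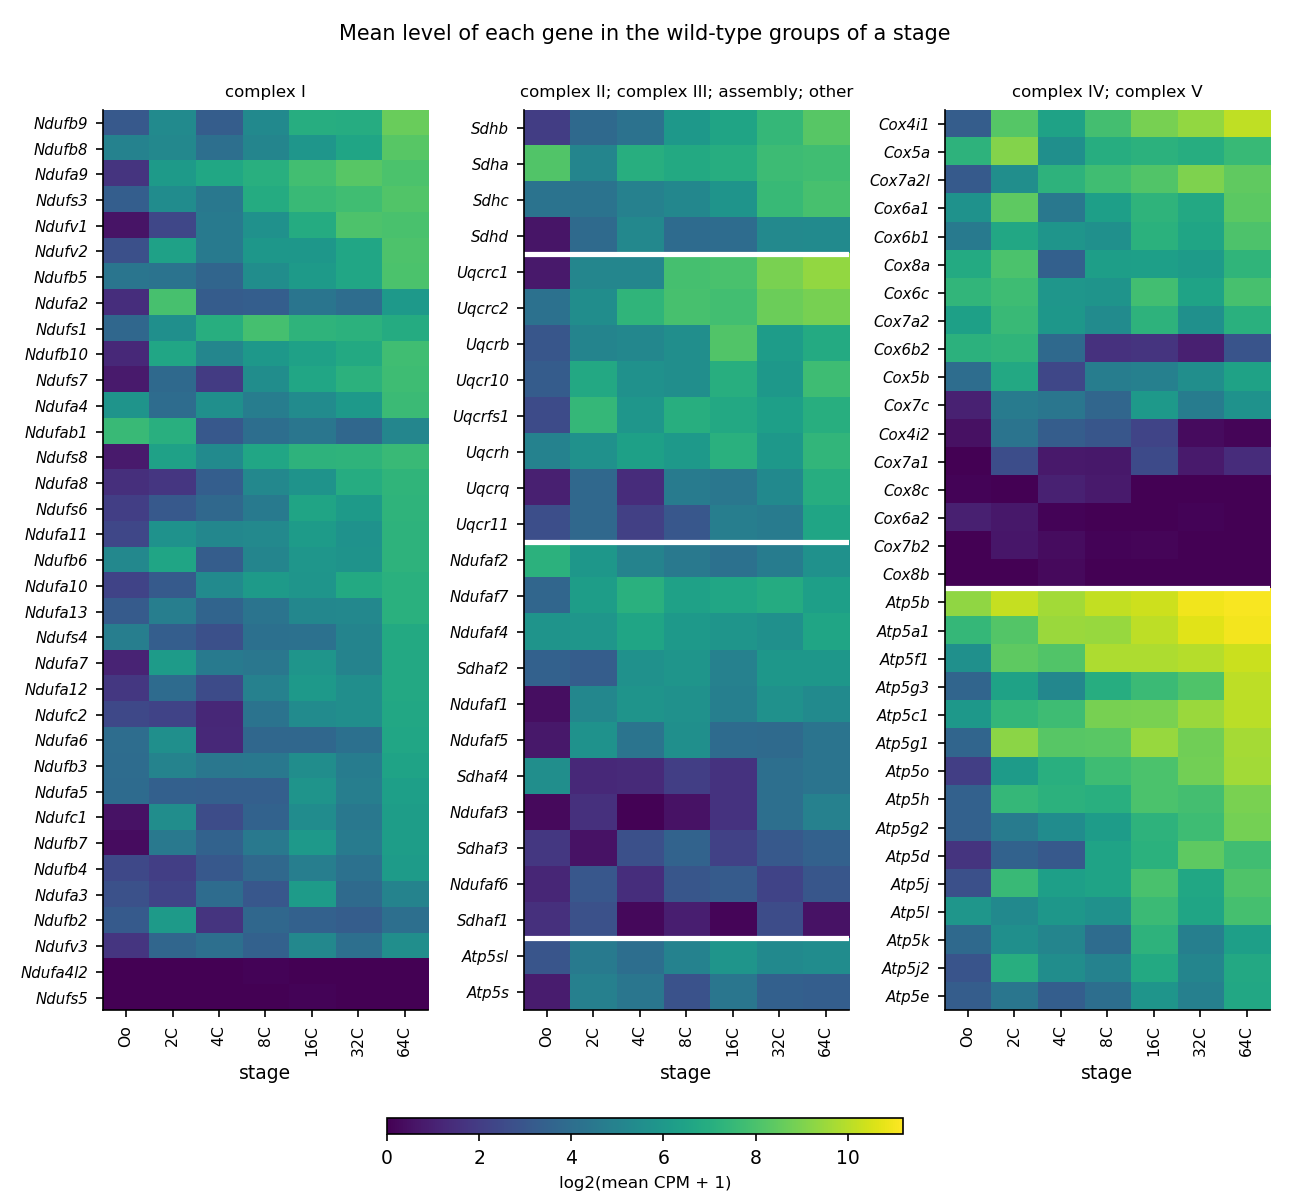
Mean level of 92 of the 93 genes (rows) in the wild-type groups of each stage (columns), as log2(mean CPM + 1) on the colour scale. The 3 panels hold complex I, then complexes II and III with the assembly factors and other genes, then complexes IV and V; 54 of the 93 genes have their highest mean at 64C.

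Promoters were searched for the binding cores of 2 regulators known to act on respiratory chain genes. NRF1, nuclear respiratory factor 1, binds a GC-rich palindrome, searched as the half-site GCGCA followed directly by its reverse complement TGCGC. GABPA, an ETS factor also called NRF2, binds the ETS core, searched as CCGGAAG on both strands. RefSeq windows from 250 bases before to 50 bases after the start (GRCm38.p6) were at hand for 77 members, with 83 windows in all. The NRF1 core was in 7 of the 83 (8.43%) and in 319 of 32851 windows of all genes (0.971%). The ETS core was in 20 of the 83 (24.1%) and in 2910 of all windows (8.86%). Neither motif contains the other. Shown here are the 5 sites that lie wholly before the start, each 30 bases, 5′ to 3′ on the gene's strand, with the core in capitals.
Ndufaf4, chr4:24897960-24897989 (+): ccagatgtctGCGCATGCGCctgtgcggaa
Ndufa11, chr17:56717692-56717721 (+): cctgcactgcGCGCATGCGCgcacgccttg
Cox6a1, chr5:115349101-115349130 (-): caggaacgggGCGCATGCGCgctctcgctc
Atp5g2, chr15:102671070-102671099 (-): ggctccggccGCGCATGCGCagagccttcc
Atp5k, chr5:108434430-108434459 (-): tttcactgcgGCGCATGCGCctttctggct
The core begins 10 bases into each window, and it ends 32 bases before the start in Atp5g2 and 152 bases before it in Cox6a1. The 5 genes behaved differently over the stages: Atp5g2 rose with a log2 slope of 0.95 (edgeR adjusted p = 2.59e-09) and Ndufa11 with 0.43 (edgeR adjusted p = 0.0023), while Atp5k (0.34, edgeR adjusted p = 0.147), Cox6a1 (0.16, edgeR adjusted p = 0.413) and Ndufaf4 (0.13, edgeR adjusted p = 0.333) did not pass the test. Of the members tested, 3 of 7 with the NRF1 core and 42 of 67 without it rose over the stages. A match of letters is a description and not a measured binding site.

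In complex I, 27 of the 34 tested genes rose between 2C and 64C and none fell, against 18.3% and 20.6% of all genes. The slope over stages was called upward for 27 of 34, against 20.2% of all genes. Ndufv1, which carries the NADH-binding site, had 15.1, 0.18, 1.52 and 0.44 CPM in 2C groups (BC female, CB female, BC male, CB male, the order used throughout) and 368, 202, 234 and 216 CPM in 64C groups. Every 64C group was above every 2C group. Its log2 slope per doubling was 1.28 ± 0.18 (SE; edgeR adjusted p = 5.71e-06). Ndufa8, an accessory subunit, had the same slope (1.28 ± 0.21; edgeR adjusted p = 3.54e-05), from 9.32, 0, 0 and 0.18 CPM in 2C groups to 176, 158, 232 and 74.2 CPM in 64C groups. For Ndufa8, too, the groups of the 2 stages did not overlap.

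The most abundant complex I transcripts per length over the embryo groups were those of the accessory subunit Ndufb9 and the core subunit Ndufs3, at 194 ± 210 and 178 ± 117 RPRT (SD, n = 23), the authors' length-normalized signal. Ndufs3 was at 58.3, 52.7, 41.6 and 16.1 CPM in 2C groups and 343, 316, 257 and 213 CPM in 64C groups (slope 0.76 ± 0.12, edgeR adjusted p = 1.48e-05). Ndufb9 was at 62.5, 33.5, 26.02 and 39.9 CPM in 2C groups and 484, 357, 350 and 395 CPM in 64C groups (slope 0.85 ± 0.12, edgeR adjusted p = 3.49e-06). In both genes every 64C group was above every 2C group.

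Further core subunits of complex I had slopes of the same sign. Ndufs7, which holds the last iron-sulfur cluster of the chain, had a slope of 1.07 (edgeR adjusted p = 5.24e-05). Ndufv2, at the NADH end, had 0.48 (edgeR adjusted p = 0.00019), and Ndufs8 had 0.43 (edgeR adjusted p = 0.000361). Ndufs1, the large iron-sulfur subunit, reached its highest mean at 8C, where the CB male cell had 446 CPM and the other groups had 142 to 186 CPM; its slope over stages was 0.17 (edgeR adjusted p = 0.423), while 64C was above 2C by 1.96 (edgeR adjusted p = 0.00305). Among accessory subunits, Ndufs4 (slope 0.83, edgeR adjusted p = 2.67e-06), Ndufb5 (0.92, edgeR adjusted p = 1.43e-06) and Ndufc2 (1.16, edgeR adjusted p = 4.57e-06) rose as well. Ndufa10, which sits beside the membrane arm, was at 9.5, 12.5, 6.08 and 3.82 CPM in 2C groups and at 162, 127, 118 and 140.3 CPM in 64C groups, a change of 4.75 (edgeR adjusted p = 1.8e-06).

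A few complex I genes were high before 4C. Ndufab1, the mitochondrial acyl carrier protein, was at 170.4 and 216 CPM in B6 and Cast oocytes and at 102.1 to 177 CPM in 2C groups, then at 4.38, 8.68 and 9.16 CPM in 4C groups (BC female, CB female, BC male). Ndufa2 was at 2.65 and 0.95 CPM in oocytes, 219.6, 355, 181 and 238 CPM in 2C groups and 5.35, 6.51 and 13.5 CPM in 4C groups. The 2C peak of Ndufa2 overlapped with neither neighbour. Ndufa2 is short, with 550 bases implied by counts over RPRT. Reads of other genes under 700 bases took 3.28% and 3.04% in B6 and Cast oocytes. They took 10.4% to 13.4% in 2C groups and 3.05% to 3.97% in 4C groups. The part of length in the peak of Ndufa2 was not tested. Neither Ndufab1 nor Ndufa2 had a called slope over the stages (-0.24 for both, edgeR adjusted p = 0.191 and 0.228). Ndufs5 had at most 0.26 CPM in any group and Ndufa4l2, a paralog of Ndufa4, at most 0.12 CPM. How reads that match more than 1 place in the genome were counted is not given in the sources used here, and its part in levels near 0, such as that of Ndufs5, was not tested.

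Of the 4 genes of complex II, 3 had a slope called upward, against 20.2% of all genes. Sdhd, a membrane anchor, did not pass the test (slope 0.30, edgeR adjusted p = 0.132). Sdhb, the iron-sulfur subunit, was at 26.7, 2.99, 4.73 and 17.8 CPM in 2C groups and 321, 285, 333 and 316 CPM in 64C groups (slope 1.04 ± 0.11, edgeR adjusted p = 8.97e-08). Sdhc, the other anchor, was at 8.28, 34.5, 21.1 and 9.77 CPM in 2C groups and 221, 219.6, 241 and 289 CPM in 64C groups (slope 0.90 ± 0.09, edgeR adjusted p = 4.24e-08). For both genes the 64C values stood clear of the 2C values.

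Sdha, the flavoprotein that oxidizes succinate, took another course. It had 389.9 and 172 CPM in B6 and Cast oocytes, 46.8, 19.9, 59.5 and 5.86 CPM in 2C groups, 209, 59.6 and 113 CPM in 4C groups, and 240.4, 198, 130.1 and 299 CPM in 64C groups. The 2C groups lay below both oocyte groups and the 64C groups above all 2C groups. Sdha fell from oocytes to 2C by 4.59 on the log2 scale (SE 0.70, edgeR adjusted p = 3.17e-05), and rose from 2C to 4C by 2.33 (SE 0.62, edgeR adjusted p = 0.0175). That second call rests on the BC females of 4C, without which it was 1.74 (edgeR adjusted p = 0.127). Its paternal share, given further on, changed over the same stages.

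In complex III, 6 of 8 genes rose between 2C and 64C and none fell, against the same shares of all genes as above. Uqcrc1, a core subunit on the matrix side, was at 37.4, 74.2, 21.8 and 4.53 CPM in 2C groups and 729.7, 517, 672 and 710.5 CPM in 64C groups (slope 1.014 ± 0.163, edgeR adjusted p = 2.19e-05). Its partner Uqcrc2 was at 78.5, 39.6, 26.7 and 32.4 CPM in 2C groups and 394, 523, 329 and 682 CPM in 64C groups (slope 0.65 ± 0.12, edgeR adjusted p = 8.49e-05). Neither gene's groups overlapped between the 2 stages. Uqcrfs1, the Rieske iron-sulfur protein, was already at 184, 252, 101.9 and 168 CPM in 2C groups and at 68.1, 235, 134 and 76.6 CPM in 64C groups, with a slope of 0.03 (SE 0.11, edgeR adjusted p = 0.839). Uqcr10, a small subunit, had the highest level per length in the complex (231 ± 188 RPRT, SD, n = 23) and a slope of 0.32 that missed the threshold (edgeR adjusted p = 0.0508).

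In complex IV, 3 of the 16 tested genes rose between 2C and 64C (Cox4i1, Cox7a2l and Cox6b1), 4 fell (Cox6b2, Cox4i2, Cox6a2 and Cox7b2) and 9 did not pass the test. These are 18.8% and 25% of the tested genes of the complex, near the 18.3% and 20.6% of all genes. The falls of Cox6a2 and Cox7b2 each rest on 1 group at 2C with a low level, given below. Without the BC females of 64C 1 member fell, and 2 fell without the BC or the CB males of 64C or the BC male cell of 2C. Cox4i1, the ubiquitous form of subunit 4, had the highest level per length of the complex (690 ± 529 RPRT, SD, n = 23). It was at 11.4 and 6.36 CPM in oocytes, 379, 413, 219.8 and 189 CPM in 2C groups, 54.8, 107 and 94.9 CPM in 4C groups and 1445, 855, 1128 and 1002 CPM in 64C groups. The 4C groups lay between the oocyte and the 2C groups, and the 64C groups above all of these (slope 0.59 ± 0.10, edgeR adjusted p = 2.71e-05). Cox5a, Cox8a, Cox6a1, Cox6c, Cox7a2 and Cox5b, which are not tissue-restricted, had slopes between -0.14 and 0.21, none of them called. Cox5a, for instance, was at 544.5, 699, 274.5 and 740.4 CPM in 2C groups, 21.8, 75.2 and 43.3 CPM in 4C groups and 83.5, 333, 223 and 105 CPM in 64C groups, so that the 2C and 64C groups overlapped and the 4C groups were below both.

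Several complex IV subunits exist as paralogs with different tissues as their main site. Cox6b2 is known as the testis form of subunit 6B. It made up 75.7 ± 18.1% of the summed Cox6b1 and Cox6b2 level per length in oocytes (SD, n = 2), 44.03 ± 33.16% in 2C groups (n = 4), 17.3 ± 12.1% in 4C groups (n = 3), 6.01 ± 3.64% in 8C groups and 2.39 ± 2.74% in 64C groups (n = 4 each). In CPM, Cox6b2 was at 253 in B6 and 33.8 in Cast oocytes, 226, 19.2, 369 and 26.7 in 2C groups and 0.92, 6.69, 0.46 and 18 in 64C groups. The groups with a B6 mother (BC) were high at 2C and those with a Cast mother (CB) were low, in the order of the oocytes of the 2 strains. These 2C groups held 2, 1, 1 and 2 cells, and the title and strain label of the CB female cell name different crosses. At 64C the CB groups were above the BC groups. No member was called between crosses by edgeR. Cox6b2 fell by 0.82 per doubling (SE 0.22, edgeR adjusted p = 0.00365). Cox6b1, the general form, rose from 107, 114, 80.1 and 115 CPM in 2C groups to 322, 213, 246 and 308 CPM in 64C groups (slope 0.41 ± 0.12, edgeR adjusted p = 0.00815).

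Cox4i2, the paralog of subunit 4 known for its expression in lung and its tie to low oxygen, was a minor form that faded. It was at 26.3, 18.7, 15.0 and 14.5 CPM in 2C groups, 7.69, 6.51 and 12.6 CPM in 4C groups, and 0, 0.47, 0.042 and 0 CPM in 64C groups. It made up 8.93 ± 1.69% of the summed level of Cox4i1 and Cox4i2 per length at 2C, 13.2 ± 3.99% in 4C groups and 0.03 ± 0.05% in 64C groups. Its slope was -1.36 (SE 0.38, edgeR adjusted p = 0.00543). The muscle forms Cox6a2 and Cox8b and the testis forms Cox7b2 and Cox8c had at most 4.32 CPM in any group. The calls for Cox6a2 and Cox7b2 between 2C and 64C each rest on 1 group at 2C, 2.53 CPM in BC males and 2.31 CPM in CB males, with no reads in the other 2C groups.

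Cox7a2l, a homolog of subunit 7A that takes part in joining complexes III and IV, was above Cox7a2 per length in 20 of the 25 groups from 4C on, and below it in all 4 groups of 2C. The 5 exceptions were both 16C male groups, the wild-type CB males of 64C (43.1% against 56.7% for Cox7a2), the mutant females of 8C and the males labelled wt/ko of 32C. It made up 13.2 ± 3.56% of the level per length of Cox7a1, Cox7a2 and Cox7a2l at 2C, 61.1 ± 9.23% in 4C groups, 73.97 ± 2.87% in 8C groups and 60.3 ± 14.5% in 64C groups. Its CPM were 49.6, 37.7, 41.1 and 55.05 in 2C groups, 171, 118 and 159 in 4C groups and 517, 308, 410.2 and 187 in 64C groups. Neither the 4C nor the 64C groups overlapped with the 2C groups (slope 0.69 ± 0.12, edgeR adjusted p = 8.28e-05). At 16C its share was 97.7% and 97.4% in females and 29.8% and 14.7% in males, again a division of the 16C groups by sex. The length implied by counts over the per-length signal was 660 bases for Cox7a2 and 1075 bases for Cox7a2l. Reads of other genes under 700 bases took 1.01% and 2.03% in the 16C females and 11.8% and 10.7% in the males. The part of length in the proportions of Cox7a2 and Cox7a2l, at 16C and over the stages, was not tested.

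**Figure D3:**
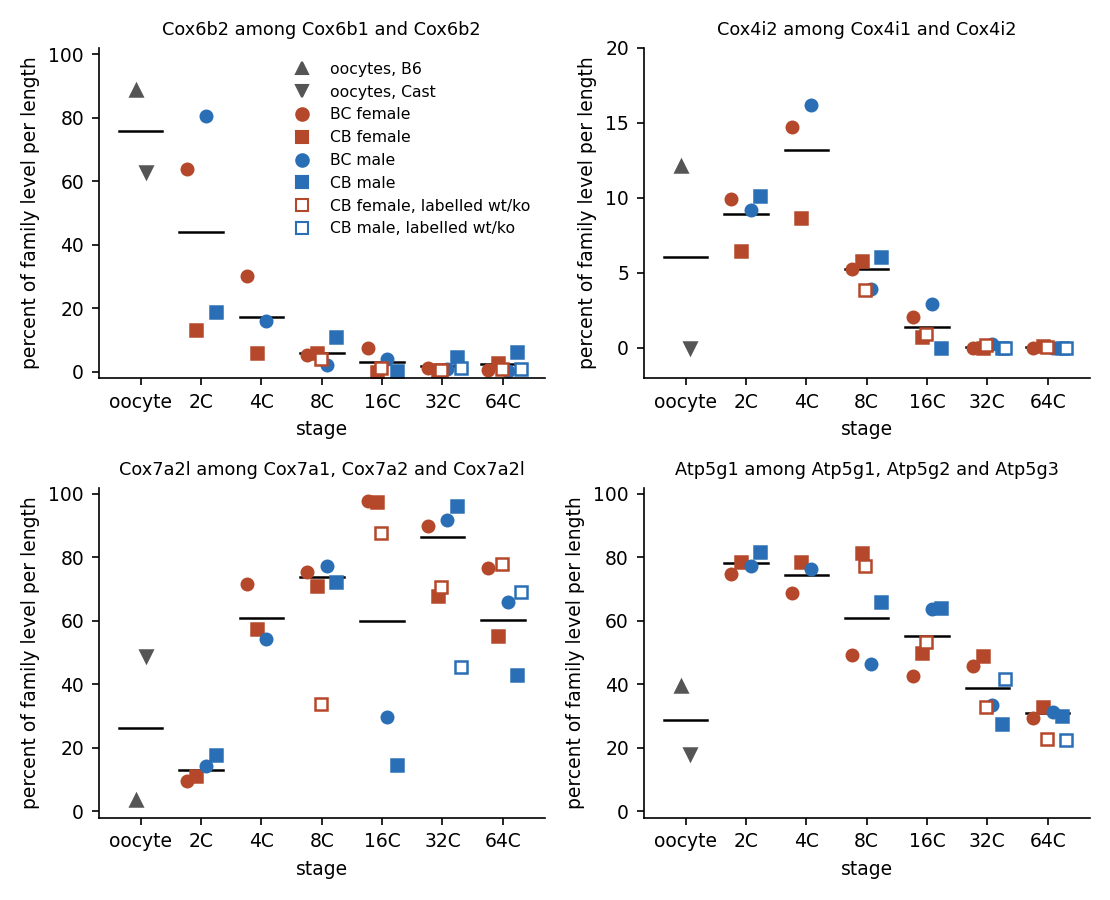
Level per length of 1 paralog as a percent of its family (y axes) by stage (x axes) for Cox6b2, Cox4i2, Cox7a2l and Atp5g1, 1 point per group. Lines are the means of the wild-type groups; Cox6b2 goes from 75.7% in oocytes to 2.39% in 64C groups, and Atp5g1 from 78.2% in 2C groups to 31% in 64C groups.

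In complex V, 11 of 15 genes were called upward between 2C and 64C and none downward, against 18.3% and 20.6% of all genes; all 15 changes were above 0. Atp5b, the catalytic beta subunit, had the highest mean level per length of all 93 genes (962 ± 415 RPRT, SD, n = 23). It was at 515 and 767 CPM in oocytes, 915, 1521, 945 and 1333 CPM in 2C groups, 732, 747 and 902 CPM in 4C groups and 2369, 2430, 1727 and 2119.9 CPM in 64C groups. Every 64C group was above every 2C group, by a smaller factor than in most of the family (slope 0.34 ± 0.07, edgeR adjusted p = 0.000267). On the authors' per-length signal the slope of Atp5b was 0.06 and not called (limma adjusted p = 0.559). Atp5a1, the alpha subunit, was at 376, 325, 166 and 293 CPM in 2C groups and 1843, 1998, 2265 and 2028 CPM in 64C groups (slope 0.62 ± 0.08, edgeR adjusted p = 1.73e-06).

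Subunit c, which forms the rotor ring, is made from 3 genes that encode the same mature protein, and their proportions turned over. Atp5g1 was at 549, 697, 452 and 759 CPM in 2C groups and 695, 848, 726 and 1006 CPM in 64C groups, groups that overlapped (slope 0.23 ± 0.10, edgeR adjusted p = 0.0574). Atp5g2 was at 31.8, 30.8, 12.3 and 20.6 CPM in 2C groups and 481, 417, 423 and 522 CPM in 64C groups, with the smallest p of all members. Atp5g3 was at 83.9, 90.7, 84.5 and 85.7 CPM in 2C groups and 943, 1046, 938 and 1466 CPM in 64C groups (slope 0.87 ± 0.11, edgeR adjusted p = 5.87e-07). Of the summed level per length, Atp5g1 gave 78.2 ± 2.82% in 2C groups and 31 ± 1.57% in 64C groups, Atp5g3 gave 16.3 ± 2.52% and 46.7 ± 1.96%, and Atp5g2 gave 5.49 ± 2.32% and 22.3 ± 2.43% (SD, n = 4 each). For each of the 3 genes the 2C and 64C groups stood apart in these shares.

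Atp5d, the delta subunit of the central stalk, had the steepest slope in complex V (1.22 ± 0.22, edgeR adjusted p = 9.25e-05), from 29.8, 0.53, 2.53 and 9.59 CPM in 2C groups to 207, 249, 243 and 179.7 CPM in 64C groups. Atp5o, the stalk subunit OSCP, had 119, 65.5, 50.3 and 42 CPM in 2C groups and 837, 653, 1024 and 696 CPM in 64C groups (slope 0.77 ± 0.08, edgeR adjusted p = 2.52e-08). In both genes the 2 stages did not overlap. Atp5c1, the gamma subunit that turns in the head, and Atp5f1, subunit b of the outer stalk, had slopes of 0.63 and 0.49 (edgeR adjusted p = 6.48e-07 and 0.000596). The small membrane subunits Atp5j2 and Atp5k and the coupling factor Atp5j had slopes of 0.09, 0.34 and 0.25 that were not called (edgeR adjusted p = 0.633, 0.147 and 0.135).

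The 11 assembly factors help to build the complexes and are not part of them. Between 2C and 64C, 4 of them rose (Sdhaf2, Sdhaf3, Sdhaf4 and Ndufaf3), or 36.4% against 18.3% of all genes. The slope was called upward for 2 of the 11, or 18.2%, near the 20.2% of all genes. These were Ndufaf3 (1.09, edgeR adjusted p = 0.00242) and Sdhaf4 (0.93, edgeR adjusted p = 0.000467). Ndufaf2 and Ndufaf7, the most abundant of them per length (57.3 ± 39.6 and 47.1 ± 18.1 RPRT, SD, n = 23), had slopes of 0.06 and 0.10 that were not called (edgeR adjusted p = 0.668 and 0.462) and whose sign changed under other settings. Among the non-subunits, Atp5sl rose by 0.36 per doubling (edgeR adjusted p = 0.0142), although its slope was -0.183 on the per-length signal, and Atp5s had a slope of -0.16 (edgeR adjusted p = 0.382).

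The first step, from oocytes to 2C, held the most calls among consecutive stages. There 20 of 90 members rose and 5 fell, against 13.8% and 13.2% of all genes. Among the rises with the lowest p were, in complex I, Ndufa9 (3.47, edgeR adjusted p = 6.42e-05), Ndufs8 (5.31, edgeR adjusted p = 9.96e-05) and Ndufb10 (4.62, edgeR adjusted p = 0.000113), then Atp5g1 (4.26, edgeR adjusted p = 0.00042), Atp5o (2.94, edgeR adjusted p = 0.000485) and Cox4i1 (3.61, edgeR adjusted p = 0.000536). Ndufa2 (5.62, edgeR adjusted p = 0.00129) and Uqcrfs1 (3.79, edgeR adjusted p = 0.00207) rose too. Besides Sdha, the genes that fell were the assembly factors Sdhaf4 (-6.52, edgeR adjusted p = 0.000835) and Ndufaf2 (-2.62, edgeR adjusted p = 0.00467), the complex I subunit Ndufs4 (-3.00, edgeR adjusted p = 0.00368) and Ndufa4 (-3.44, edgeR adjusted p = 0.0128), counted with complex I by symbol but known as a component of complex IV. Without the B6 oocytes, Sdhaf4 (-3.33, edgeR adjusted p = 0.136) and Ndufs4 (-2.35, edgeR adjusted p = 0.0724) were no longer called; without the Cast oocytes 9 members rose, without the B6 oocytes 2 fell and without the BC females of 2C 8 fell. With DESeq2's size factors 19 rose and 10 fell, and with library totals alone 36 rose and 2 fell. Totals alone moved the median of all genes from 0.04 to 1.45, so that the direction of a gene near that shift depends on the scaling.

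From 2C to 4C, 8 members rose and 8 fell, against 6.61% and 2.92% of all genes. The 8 that rose were Ndufa10 (2.68, edgeR adjusted p = 0.00295), the assembly factor Sdhaf2 (2.87, edgeR adjusted p = 0.00523), Uqcrc2 (2.20, edgeR adjusted p = 0.0068), Atp5a1 (1.67, edgeR adjusted p = 0.00775), Cox7a2l (2.05, edgeR adjusted p = 0.0105), Sdha, Ndufs1 and Ndufv1. On the per-length signal Ndufa10 (-0.329) and Ndufs1 (-0.284) turned direction. The 8 that fell, 7 of them under 700 bases, were Ndufa2 (-4.53, edgeR adjusted p = 0.00341), Ndufb6 (-3.08, edgeR adjusted p = 0.00775), Ndufa6 (-4.67, edgeR adjusted p = 0.011), Ndufab1 (-3.82, edgeR adjusted p = 0.014), Cox8a (-4.39, edgeR adjusted p = 0.0276), Cox5b, Cox6a1 and Ndufb2. The balance of these counts depends on the setting: 6 rose and 13 fell with library totals alone, 10 and 18 with DESeq2 (against 10.2% and 11% of all genes with an adjusted p), 8 and 17 with cell means and 2 and 25 with the per-length signal. Totals alone moved the median of all genes from -0.05 to -0.40. Leaving out the BC females, the CB females or the BC males of 4C left 2, 3 or 2 genes that fell, and leaving out the CB males of 2C left 5. Without the BC females of 4C, 4 members rose. From 4C to 8C, 4 rose and none fell, against 0.367% and 0.0902% of all genes. Among them were Ndufs3, Ndufc2 and Atp5f1, with log2 changes of 2.65, 3.83 and 2.01 (edgeR adjusted p = 0.0351 to 0.044). Without any 1 of the 3 groups of 4C or the CB females of 8C, no member was called, and 0 were called with totals alone or with the per-length signal. DESeq2 called 22 upward and none downward, against 7.84% and 1.78% of all genes, and without groups of 1 cell 11 rose. Without the BC females of 8C, 32C or 64C, the BC males of 32C or 64C, or the CB females of 64C, 2 were called, and 7 without the 1 CB male cell of 16C.

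No member was called in the later single steps by edgeR. Among all genes edgeR called 0.0963% higher and 0.517% lower from 8C to 16C. These shares were 0.193% and 0.439% from 16C to 32C, and 0.0301% and 0.108% from 32C to 64C. From 8C to 16C, 15 of 90 members had an unadjusted p under 0.05, beside 3041 of 16622 genes. From 16C to 32C, 12 members and 2515 genes had such a p, and from 32C to 64C, 23 members and 2023 genes. DESeq2 called 4 of 87 upward and none downward from 8C to 16C, against 2.7% and 6.26% of all genes. From 16C to 32C it called 3 of 88 upward and none downward, against 2.39% and 3.36%. From 32C to 64C it called 2 of 89 upward and none downward, against 1.36% and 2.29%. In this last step 79 of the 90 changes were above 0, with a median of 1.07 beside 0.0 for all genes. The members with the lowest p were Atp5k (3.17, edgeR adjusted p = 0.0746), Ndufa3 and Uqcrb from 8C to 16C, Sdhc (1.78, edgeR adjusted p = 0.121), Atp5k and Sdhaf4 from 16C to 32C, and Atp5g3 (2.03, edgeR adjusted p = 0.16), Ndufv2 and Ndufb9 from 32C to 64C.

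An implied length, which is not a measured transcript length, went with these later steps and with the step from 2C to 4C. Lengths implied by the ratio of counts to the per-length signal had a median of 668 bases in the members and 1601 bases over all genes. The ratio was not fixed between cells: relative to each gene's median, the median of a cell was 0.594 to 1.056. From 2C to 4C, Spearman's rho between length and log2 change was 0.3 over the 90 members and 0.22 over 15627 genes. From 8C to 16C, this rho was -0.51 over the members and -0.07 over all genes. It was 0.52 and 0.04 from 16C to 32C, and -0.49 and -0.07 from 32C to 64C. The short subunits show it in the 16C groups: Uqcrb, a small subunit of complex III, was at 9.79 and 20.9 CPM in females and 416 and 693 CPM in males, Atp5k at 5.24 and 12.96 against 345 and 241 CPM, and Ndufa3 at 4.35 and 6.02 against 136 and 134 CPM. Reads of all other genes under 700 bases followed the same groups, at 1.01% and 2.03% of reads in the 16C females and 11.8% and 10.7% in the males. They took 3.28% and 3.04% in B6 and Cast oocytes and 10.4% to 13.4% in 2C groups. In 4C groups they took 3.05% to 3.97%, and in 64C groups 6.53% to 7.11%. The part of length, or of amplification, in the members' changes was not tested. From 2C to 64C, 29 of the 43 members of 700 bases and over rose and 1 fell, beside 25 and 3 of the 47 shorter ones, a split chosen after the values were seen. Among all genes under 700 bases tested, 177 of 1580 rose and 488 fell from 2C to 64C, and 23 rose and 85 fell from 2C to 4C.

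**Figure D4:**
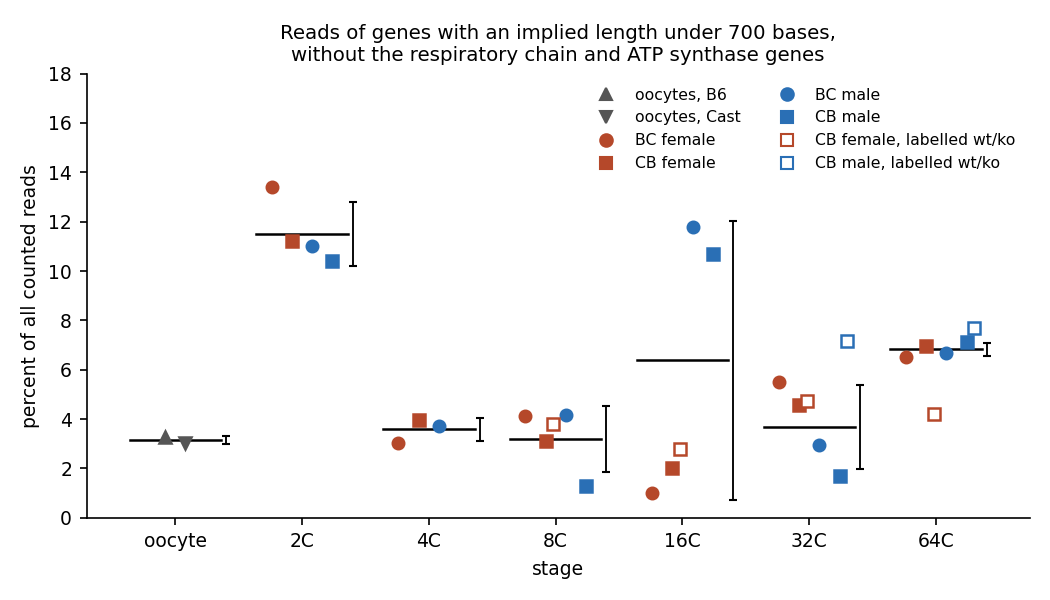
Percent of counted reads (y axis) in all genes with an implied length under 700 bases, the 93 genes left out, by stage (x axis), 1 point per group; lines are wild-type means and error bars 1 SD. The 16C males (11.8% and 10.7%) stand apart from the 16C females (1.01% and 2.03%).

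The crosses differ in mother and father together, and their comparison asks whether levels depend on which strain gave which genome. Over the 11 pairs of stage and sex with both crosses, no member of 89 was called by edgeR in either direction, against 0.00618% of all genes each way. An unadjusted p under 0.05 was found for 8 members, beside 1835 of 16171 genes. DESeq2 called Ndufaf3 lower and Sdhd higher in CB, against 4.58% and 1.32% of all genes. The lowest p belonged to Ndufaf3 (CB minus BC, -2.85 ± 0.92, edgeR adjusted p = 0.312), Sdhd (1.49 ± 0.48, edgeR adjusted p = 0.312) and Ndufb8 (-1.28 ± 0.54, edgeR adjusted p = 0.394). Sdhd was at 19.6 CPM in both BC groups of 64C and at 70.2 and 52.6 CPM in the CB groups. At 32C it was at 6.74 and 11.3 CPM in BC and at 31.2 and 99.3 CPM in CB. The members' share of reads was higher in CB in 7 of 11 pairs, while the mean difference of -0.037 ± 0.245 percentage points (SD) had the other sign.

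Between the sexes no member of 89 was called over 11 pairs of stage and cross, against 0.0369% of all genes higher and 0.0123% lower in females. An unadjusted p under 0.05 was found for 2 members, beside 809 of 16269 genes. DESeq2 called no member, against 0.431% and 0.104% of all genes. The lowest p belonged to Uqcrc1 (female minus male, 1.0 ± 0.41, edgeR adjusted p = 0.99), Ndufv1 (0.75 ± 0.34) and Uqcrc2 (0.48 ± 0.23). The share of reads was higher in females in 6 of 11 pairs, while the mean difference of -0.037 ± 0.379 percentage points (SD) had the other sign. The 2 pairs of 16C gave the lowest values, -0.652 and -0.787 percentage points.

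Embryos labelled wt/ko and wild-type CB embryos were compared within each stage, females and males apart. In females, no member of 89 was called over 4 stages by edgeR, against 0.0% of all genes each way. An unadjusted p under 0.05 was found for 1 member, beside 512 of 14304 genes. DESeq2 called no member, against 1.33% of all genes higher and 0.205% lower. Members lay lower in the mutants more often than higher, with a median log2 difference of -0.33 beside 0.12 for all genes and 21 of 89 above 0. Their share of reads was 0.534% in mutant and 0.936% in wild-type females at 8C, 0.893% and 0.915% in 16C groups, 1.75% and 1.398% in 32C groups, and 1.91% and 2.22% in 64C groups, so the sign differed between stages. Without the 2 mutant 8C cells with the most Xist reads, the 8C share was 0.576%, the median difference -0.30, with 19 of 89 above 0, and no member was called. The lowest p belonged to Cox5a (1.41 ± 0.60), Cox5b (1.13 ± 0.53) and Ndufs8 (-0.90 ± 0.46), each with an edgeR adjusted p of 1.0.

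In males, where the wt/ko label is not expected to mean a deletion, 2 pairs left 1 residual degree of freedom. No member of 85 was called by edgeR, against 0.0% of all genes each way. An unadjusted p under 0.05 was found for 8 members, beside 359 of 11147 genes. DESeq2 called 3 of 84 upward and none downward, against 1.82% and 1.25%. The members' median difference was 1.04 beside 0.035 for all genes. Their share of reads was 2.05% in males labelled wt/ko and 1.09% in wild-type males at 32C, and 2.48% and 2.38% in 64C groups. Length went with this difference too, with a rho of -0.68 over the members and -0.18 over all genes, and the other genes under 700 bases took 7.17% of reads in the labelled and 1.71% in the wild-type males of 32C. The lowest p belonged to Ndufs6 (2.24 ± 0.73), Atp5d (2.08 ± 0.68) and Cox5a (2.23 ± 0.81), with an edgeR adjusted p of 1.0 for each.

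The deposited paternal share of a gene is the share of its allele-assigned reads that came from the father's strain; a cell counted where the gene had at least 10 reads. The number of reads behind a share is not given in the file, so the depth of single shares is unknown. In oocytes, which have no father, the share is that of the other strain and gives the background of assignment: the members' median was 0.0128 in B6 and 0.0025 in Cast oocytes. X-linked genes in the 13 male embryo groups had medians of 0 to 0.0204. Of the 93 genes, 78 were in the share table.

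Members passed from mostly maternal to equal use of both alleles along with the other autosomal genes. The mean of the group medians was 0.383 ± 0.055 in 2C (SD, n = 4) and 0.456 ± 0.031 in 4C embryos (n = 3). It was then 0.464 ± 0.026 (8C), 0.495 ± 0.043 (16C), 0.488 ± 0.016 (32C) and 0.499 ± 0.006 (64C, n = 4 each). The autosomal means over the same 6 stages were 0.334, 0.437, 0.460, 0.498, 0.501 and 0.505. At 2C the members' median was above the autosomal one in all 4 groups, 0.343, 0.416, 0.331 and 0.444 beside 0.335, 0.393, 0.211 and 0.396. The median slope per doubling of cell number was 0.0223 over 58 members and 0.0214 over all genes tested. The groups labelled wt/ko had medians of 0.485 (8C females), 0.511 (16C females), 0.508 and 0.517 (32C females and males) and 0.502 and 0.507 (64C females and males).

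By limma, the shares of 3 members rose over the stages and none fell, against 4.31% and 0.185% of all genes (4.5% either way). An unadjusted p under 0.05 was found for 14 of 58 members, beside 1205 of 5935 genes. Sdha rose by 0.0936 per doubling (SE 0.0157, limma adjusted p = 0.00304). Its share was 0.0579, 0.0857, 0 and 0 in 2C groups, 0.389, 0.463 and 0.10 in 4C groups and 0.461, 0.585, 0.577 and 0.565 in 64C groups. In oocytes it was 0.0074 and 0.0046. Every 4C group was above every 2C group. Ndufa4 (0.0559 ± 0.0160, limma adjusted p = 0.0444) and Atp5a1 (0.0539 ± 0.0156, limma adjusted p = 0.0455) were called as well, and both calls were lost when shares rested on medians over cells or on at least 2 cells per group. The count of 3 became 1 without the BC females of 2C, 8C, 16C or 64C, the BC males of 2C, 8C, 16C or 32C, the CB males of 2C or the CB females of 32C. Ndufaf4 (0.0669, limma adjusted p = 0.0588), Cox6b2 (0.118, limma adjusted p = 0.0812) and Atp5c1 (0.0375, limma adjusted p = 0.119) followed. Cox6b2 had shares of 0.120, 0.0213 and 0.0117 in the first 3 groups of 2C and 0.414 in the CB males.

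The paternal allele is the Cast one in BC embryos and the B6 one in CB embryos. Over 8 pairs from 8C to 64C, 1 member had a higher paternal share in BC and 3 had a lower one, against 4.57% and 7.27% of all genes (11.8% either way). An unadjusted p under 0.05 was found for 7 of 60 members, beside 1538 of 5886 genes. Cox7c, a small subunit of complex IV, had most of its assigned reads on the Cast side whichever parent was Cast. In BC, females and males had paternal shares of 0.921 and 0.6 (8C), 0.924 and 0.919 (16C), 0.819 and 0.853 (32C) and 0.869 and 0.861 (64C), with a mean of 0.846 ± 0.106 (SD, n = 8). The 8 CB groups had 0.0164 to 0.138 (0.0751 ± 0.0384). The difference was 0.77 (SE 0.055, limma adjusted p = 1.39e-05), and the groups of the 2 crosses did not overlap. The 6 CB groups labelled wt/ko had 0.0806 ± 0.0200. The same split held at 2C and 4C, with 0.888, 0.770 and 0.766 in the BC groups that had a value and 0.0548, 0.0321 and 0.0795 in the CB groups.

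The other 3 were used more from the B6 allele. Ndufv2 had a paternal share of 0.274 ± 0.096 in BC (0.152 to 0.461) and 0.694 ± 0.089 in CB (0.597 to 0.835), a difference of -0.42 (SE 0.062, limma adjusted p = 0.00172). Atp5e, the epsilon subunit of the ATP synthase stalk, had 0.390 ± 0.073 in BC and 0.668 ± 0.057 in CB, a difference of -0.278 (SE 0.055, limma adjusted p = 0.00919). The groups of the 2 crosses did not overlap for Ndufv2 or Atp5e. Ndufaf2, a complex I assembly factor, had 0.312 ± 0.055 in BC and 0.647 ± 0.223 in CB (n = 7), a difference of -0.344 (SE 0.081, limma adjusted p = 0.0251), with 1 CB group, the 64C males, at 0.18 below all BC groups. That call was lost without the female pairs of 8C or 16C or the male pairs of 16C or 32C (limma adjusted p = 0.0575 to 0.0651). Without the male pair of 16C, 2 members were higher in BC. Ndufv1 (-0.246, limma adjusted p = 0.095) and Uqcr10 (-0.144, limma adjusted p = 0.0963) came next and were not called. The submitters' processing notes name the mm10 build, which is made from B6, and the part of the reference in these shares was not tested.

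**Figure D5:**
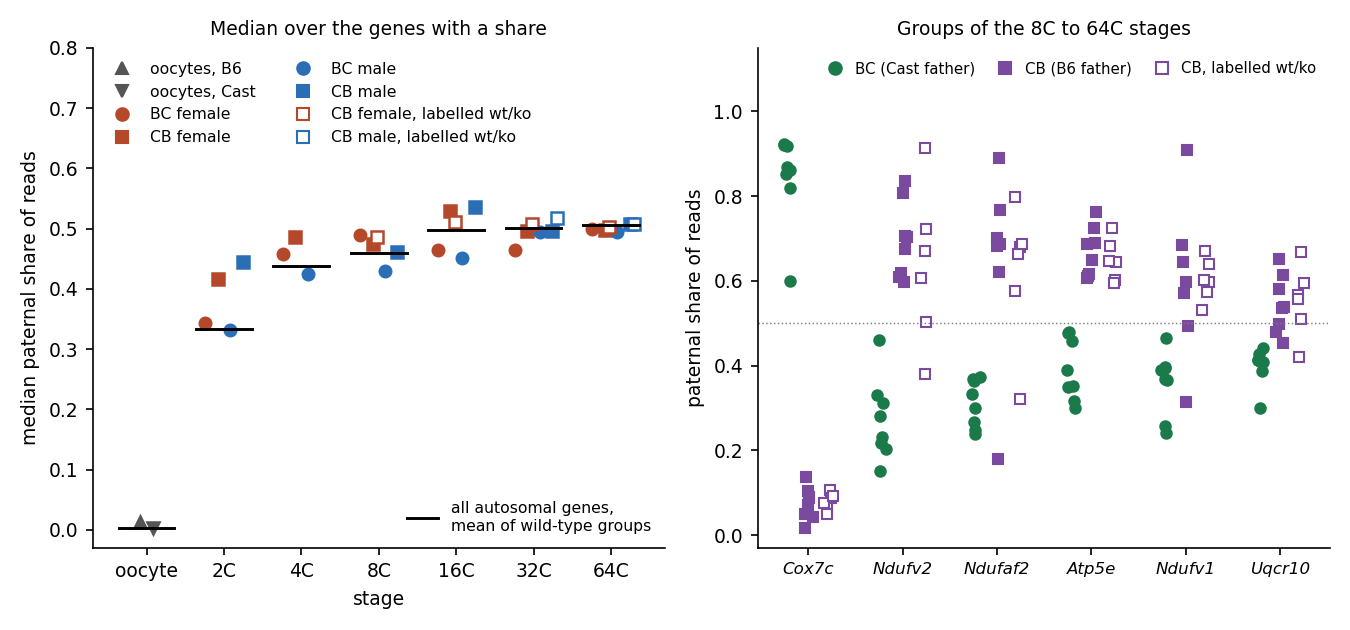
Left, median paternal share over the members (y axis) by stage, 1 point per group, with lines for the mean autosomal median of the wild-type groups; both approach 0.5. Right, paternal share of 6 genes in the groups of 8C to 64C by cross; Cox7c is at 0.6 to 0.924 in BC and 0.0164 to 0.138 in CB, and Ndufv2 and Atp5e are the reverse with no overlap.

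Mutant and wild-type CB females did not differ in a called way in the paternal share of any of 61 members by limma, against 0.0% of all genes each way. No member had an unadjusted p under 0.05, beside 320 of 6683 genes. The lowest p belonged to Ndufa3 (-0.208 ± 0.100), Ndufa7 (0.267 ± 0.124) and Ndufa10 (-0.176 ± 0.089), with a limma adjusted p of 0.897 for each. The median difference over the 61 members was -0.0015, and over all genes tested -0.0069.

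Other lists of mitochondrial genes were compared between 2C and 64C, where 18.3% of all genes rose and 20.6% fell. All 5 further electron carriers rose, among them Cyc1, cytochrome c1 of complex III (3.20, edgeR adjusted p = 0.00325), and Cycs, cytochrome c (1.74, edgeR adjusted p = 0.00813). Of 18 genes of pyruvate dehydrogenase and the citrate cycle, 14 rose and 1 fell; Suclg1, a succinyl-CoA ligase subunit, went from 6.20 ± 1.69 CPM in 2C groups to 802 ± 84.4 CPM in 64C groups (SD, n = 4; edgeR adjusted p = 5.4e-09). Of 9 genes for carriers, Vdac channels and the ATP synthase inhibitor Atpif1, 6 rose. The lowest p among them belonged to the ADP/ATP carrier Slc25a5, from 125 ± 61.5 CPM to 3343 ± 819 CPM (edgeR adjusted p = 1.22e-07). The germ-line ADP/ATP carrier Slc25a31 fell, from 73.2 ± 28.7 CPM in oocytes (n = 2) and 15.8 ± 17.1 CPM in 2C groups to no reads in the 64C groups. Of 26 further assembly genes, 11 rose and none fell.

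Of 14 genes that maintain and transcribe mitochondrial DNA or regulate nuclear genes of respiration, 6 rose and 5 fell between 2C and 64C. Tfam, which packages mitochondrial DNA and starts its transcription, rose by 2.61 (edgeR adjusted p = 0.000795), while Tfb2m, its partner at the promoter, fell by 2.90 (edgeR adjusted p = 9.51e-05) and Polrmt, the mitochondrial RNA polymerase, fell by 1.68 (edgeR adjusted p = 0.0149). Gabpa was at 437 ± 76.9 CPM in 2C groups, 681 ± 109 CPM in 4C groups and 86.4 ± 48.1 CPM in 64C groups (change -1.77, edgeR adjusted p = 0.00218). Nrf1 was at 70.95 ± 25.2 CPM in 2C groups and 41.2 ± 4.70 CPM in 64C groups (-0.19, edgeR adjusted p = 0.895). The X-linked Ndufa1, Ndufb11 and Cox7b were not called between 2C and 64C (1.30, 0.35 and 0.87; edgeR adjusted p = 0.314, 0.617 and 0.368). No gene of these lists was called for cross, sex or genotype.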

How the data were processed

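Single-cell libraries of mouse oocytes and embryos were made with 50-base single-end reads from the 3′ side of transcripts, per the labels' protocols. Per the submitters' processing notes, TopHat2 2.1.0, SAMtools and HTSeq 0.6.1 and the mm10 build were used. The authors deposited raw counts of 24499 genes and RPRT values of 20711 genes (a signal per retro-transcribed length). The authors also deposited paternal shares of 15253 genes, a fraction of allele-assigned reads made before deposit. No source used here gives the formula of RPRT, the handling of reads that match several places or the reads behind a share.

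The members and all gene lists were chosen with earlier results of these data known. Counts of cells with equal stage, cross, sex and genotype labels were summed, and each sum was 1 sample; the closest pair of cells differed far beyond sampling noise (chi-square per degree of freedom of 16.1). A cell whose title and strain label name different crosses, the 2C CB female, followed its title. Depth was 2538818 to 40049961 reads per cell. Levels are CPM of the sums, and levels between single genes are compared only as RPRT. Shares of reads by complex are not corrected for length or number of genes. edgeR 4.0.16 (R 4.3.3) fitted quasi-likelihood models with TMM factors and filterByExpr over all genes: stages as groups, a slope on log2 cell number, and cross, genotype and sex within pairs. Paternal shares, averaged over cells with at least 10 reads of the gene, were fitted with limma 3.58.1, with at least 12 groups for a slope, 5 pairs for cross and 3 stages for genotype. Calls are Benjamini-Hochberg adjusted p under 0.05 over all genes tested. A length was implied by counts over RPRT, and families of paralogs were compared as percent of summed RPRT. Alternatives were DESeq2 1.42.0, its size factors, library totals, no filter, limma on log2 of cell means or RPRT with a pseudocount of 1, covariates, and leaving out groups.

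Named in full were, per complex, the 2 genes with the highest mean RPRT and the one with the steepest slope, per comparison up to 12 called genes by p or else the 3 lowest, the paralog families, and 6 genes per share comparison; of other lists, up to 6 called genes. Nrf1, the X-linked subunits and the values that illustrate length in the 16C groups were added after their values were seen, as were some further members of each complex. The values of 1 member are not reported here, although it counts in the totals. Promoter windows came from RefSeq (GRCm38.p6).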

Additional observations from a re-analysis of the deposited data

Results flagged for a closer look

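Of 55 groups with 4 to 10 values, 3 held a value far from the others by Dixon's test, where chance gives about 1 in 20. The median paternal share of the genes in the BC females of 32C was 0.464, while the 3 further wild-type groups had 0.494 to 0.496. Among the 8 cells of the BC females of 16C, 1 cell had 0.897% of its reads in the genes, and the next had 0.828%, with the lowest at 0.766%. Among the 5 male cells of 64C labelled wt/ko, 1 cell had 2.95%, and the next had 2.4%, with the lowest at 2.28%.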

How the results depend on the processing

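No paired analysis was possible because the numbers in the titles name cells, while the samples tested are sums of cells that carry no replicate number; the pairs in the fits of cross, sex and genotype are groups matched by label, a block of the design. The rise between 2C and 64C (39 to 56 genes) and over stages (39 to 56) stayed within 1.5 times of 54 and 53 under all settings run, with 51 to 57 and 51 to 55 when 1 group was left out; the number that fell moved. From 2C to 64C, 2 fell with DESeq2, 9 with cell means, 11 with RPRT, 1 with covariates and 1 without groups of 1 cell; over stages, 5 fell without the filter, 1 with DESeq2, 4 with cell means, 6 with RPRT and 4 with covariates. From oocytes to 2C, 36 rose with totals alone, 42 with cell means and 44 with RPRT, and 10 fell with DESeq2's size factors, 17 with DESeq2 and 2 each with totals, cell means and RPRT. From 2C to 4C, 2 rose with RPRT, and 13 fell with totals, 18 with DESeq2, 17 with cell means, 25 with RPRT and 5 without groups of 1 cell. From 4C to 8C, 0 rose with totals or RPRT, 22 with DESeq2, 2 with cell means and 11 without groups of 1 cell. DESeq2 called 4, 3 and 2 genes upward in the next 3 steps, where cell means gave 2 from 16C to 32C, and 1 higher and 1 lower between crosses and 3 higher in males labelled wt/ko. Without the 2 mutant 8C cells with the most Xist reads, the share of reads was 0.576%. Of the shares, 1 rose over stages with medians over cells and 1 with at least 2 cells per group, where 2 were higher in BC.

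With 1 group or pair left out (76 fits), counts ranged from 9 to 25 higher and 2 to 8 lower (oocytes to 2C), 4 to 10 and 2 to 10 (2C to 4C), 0 to 7 higher (4C to 8C), 1 to 4 lower (2C to 64C), 1 to 4 higher (share over stages) and 1 to 2 higher and 2 to 3 lower (share by cross). The low values came without the Cast oocytes (9), the B6 oocytes (2), the BC females of 4C (4), the BC females of 64C (1), and the high ones for 4C to 8C without the CB males of 16C (7). The male genotype fit has no residual degree of freedom left with a pair removed. Slopes that changed sign were those of Ndufaf2 (-0.069 with totals, -0.168 with cell means, -0.213 with RPRT, -0.037 to 0.099 with 1 group left out, the lowest without the BC males of 64C), Ndufaf7 (-0.048 with cell means, -0.119 with RPRT, -0.003 without groups of 1 cell), Cox6a1 (-0.022) and Atp5sl (-0.183) with RPRT; from 2C to 4C, Ndufa10 (-0.329) and Ndufs1 (-0.284) did so with RPRT. The cause was not tested. Groups of 1 cell and unknown embryos limit what these spreads show.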
